A study of Mus musculus with 2 samples.

Results

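The VEGF family was followed through single-cell transcriptomes of a healing mouse skull defect: the ligand genes Vegfa, Vegfb, Vegfc and Pgf, the receptor tyrosine kinase genes Kdr, Flt1 and Flt4, and the co-receptor genes Nrp1 and Nrp2. These 9 genes were taken by symbol from 32285 genes listed in the count matrices, and each symbol matched 1 gene. The GA group was C57BL/6 mice (C57BL/6J in the methods) given intraperitoneal gambogic amide, a small-molecule agonist of the nerve growth factor receptor TrkA, at 1.2 mg/kg by the labels (the methods text gives another dose) in 100 μL of 10% DMSO. The Control group was C57BL/6 mice (also C57BL/6J in the methods) given 100 μL of the 10% DMSO vehicle. By the methods the animals were male and 2 months old, and the defect was cut in the frontal bone. Both groups were injected every day for 1 week, from 24 h ahead of the injury. On day 7 a piece of skull bone holding the defect was digested, its size given as an edge of about 3 mm by the labels and as a diameter by the methods. Each group was 1 library of cells pooled from 5 mice, so no difference between libraries carries a replicate error or a p-value, and intervals cover counting error only.

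VEGF ligands are secreted growth factors, and their receptors sit mostly on blood and lymphatic endothelium. Kdr encodes the main signalling receptor for Vegfa, Flt1 a receptor that also binds Vegfb and Pgf and can hold Vegfa back, and Flt4 the receptor for Vegfc that guides lymphatic growth. Nrp1 and Nrp2 encode neuropilins, which bind VEGF ligands beside the receptors and also serve as receptors for class III semaphorins. In healing bone, Vegfa is known to couple vessel ingrowth to bone formation. The 3′ counts cannot tell Vegfa isoforms or soluble Flt1 and Kdr transcripts apart.

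The genes lie apart in the genome (GENCODE vM21, GRCm38). The ligand genes are Vegfa at chr17:46016993-46032369 (minus strand), Vegfb at chr19:6982473-6987651 (minus), Vegfc at chr8:54077606-54187096 (plus) and Pgf at chr12:85166635-85177790 (minus). Kdr at chr5:75932827-75978458 (minus) and Flt1 at chr5:147561604-147726011 (minus) share a chromosome, and Flt4 is at chr11:49609263-49652739 (plus). Nrp1 is at chr8:128358604-128503363 (plus) and Nrp2 at chr1:62703285-62818695 (plus).

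After filtering, 8380 GA cells and 7553 Control cells remained, with medians of 10968.5 and 16299 UMIs (unique molecular identifiers, each counting 1 captured transcript). The kept libraries held 160570724 and 183666732 UMIs. Levels are given as CPM, the UMIs of a gene per 1000000 UMIs of the cells summed. The cells formed 36 clusters, of which 35 were called after marker genes, and 15 of 16 classes held at least 20 cells in each library. The members were left out of the genes used for clustering. The libraries differed in makeup: neutrophil-like cells made up 52.3% of GA cells and 27.4% of Control cells, mesenchymal-like cells 9.40% and 22.1%, and macrophage or monocyte-like cells 15.5% and 23.3%. Neutrophil marker UMIs in other cells also differed, with a summed level of 9 of 9 markers in mesenchymal-like cells of 1859 CPM in GA and 246 in Control. The libraries shared 18 cell barcodes among the kept cells.

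Expression of the receptors was led by the endothelial-like class, a cluster of 96 cells, 48 in each library, in which all 8 endothelial markers were detected at 372 to 1434 CPM in GA and 435 to 1358 in Control. Summed endothelial markers were 6943 CPM in GA and 6753 in Control, and summed neutrophil markers 5437 and 202. In GA, 19 of the 48 cells lay in a shallow subgroup with more neutrophil than endothelial marker UMIs, as given below. Of the lymphatic markers, Ccl21a had no UMI in either library there, Pdpn had 0 and 3 UMIs, and Prox1 and Mmrn1 reached at most 17.7 CPM. These lymphatic markers thus stood far below the endothelial ones, in a class where Flt4 was detected. Kdr stood at 512.8 CPM in GA (467 to 562) and 523.9 in Control (493 to 556). No other class exceeded 17.8 CPM of Kdr over both libraries.

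Flt1 was also led by the endothelial-like class. Its level there was 1387 CPM in GA and 1677 in Control, and the next class, pericyte or smooth muscle-like cells, stood at 116 over both libraries. Flt4 reached 95.3 CPM (76.2 to 118) in GA endothelial-like cells and 76.3 (64.9 to 89.2) in Control. Every other class lay at or below 0.50 CPM of Flt4 over both libraries, and among those classes the interval of each overlapped that of the next. The endothelial-like class held 66.9% of all Kdr UMIs in GA and 77.5% in Control, 74.5% and 77.0% of Flt1, and 78.9% and 76.0% of Flt4.

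**Figure D1:**
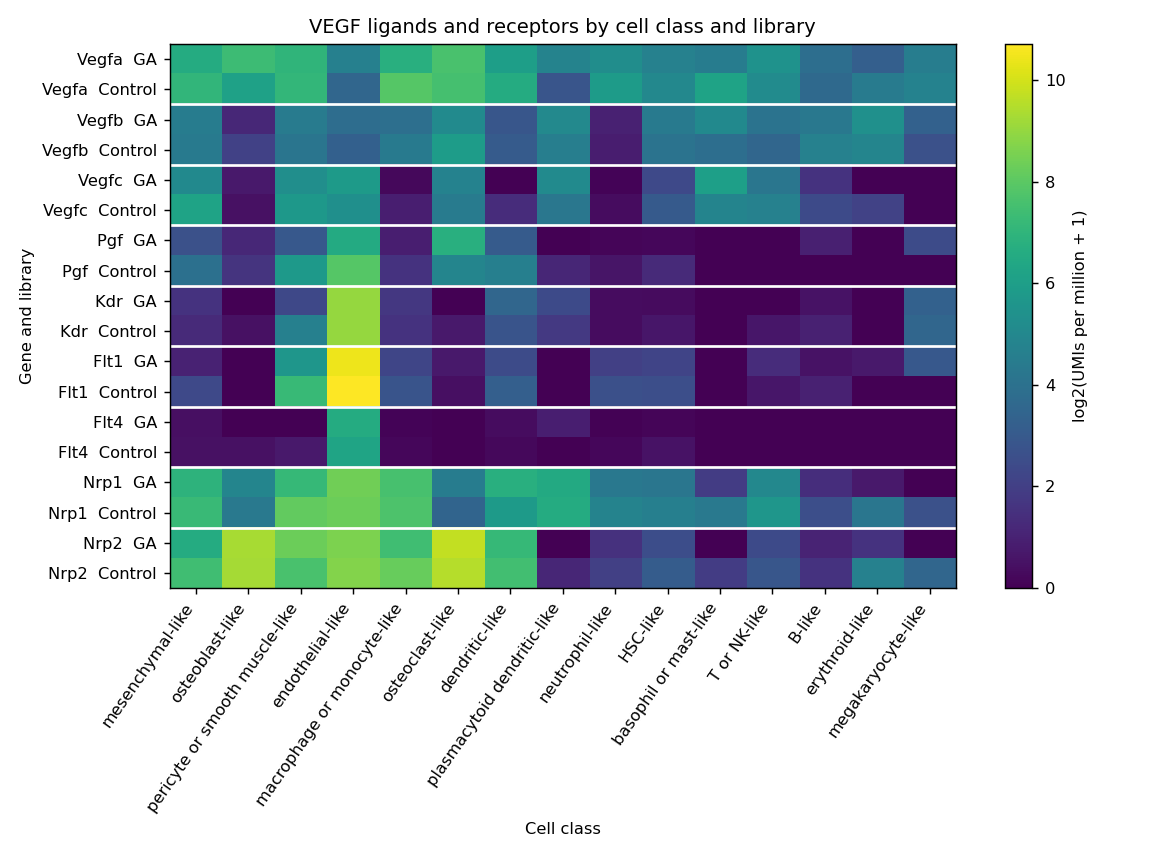
Level of each gene (rows, GA above Control) in the 15 classes with at least 20 cells in each library (columns), as log2(CPM + 1). Kdr, Flt1 and Flt4 are brightest in the endothelial-like column, where Flt1 stands at 1387 and 1677 CPM, while Nrp2 is brightest in osteoclast-like and osteoblast-like cells.

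The 3 kinase receptor genes share an endothelial lead, so the stretch of 250 bases before their RefSeq starts (build GRCm38.p6) is shown, 5′ to 3′ on the gene's strand, with each GGAA in capitals on either strand (TTCC on the other). GGAA is the core letters bound by ETS factors, a family that includes regulators of endothelial genes. The 9 members all matched the promoter table, with 11 starts, since Vegfa and Pgf have 2 each.
Kdr (chr5:75978456-75978705, minus strand): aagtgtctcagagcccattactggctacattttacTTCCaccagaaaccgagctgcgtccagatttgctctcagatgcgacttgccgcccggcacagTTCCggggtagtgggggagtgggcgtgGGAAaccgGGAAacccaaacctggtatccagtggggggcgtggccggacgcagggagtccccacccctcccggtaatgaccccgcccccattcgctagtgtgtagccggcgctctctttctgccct
Flt1 (chr5:147726012-147726261, minus strand): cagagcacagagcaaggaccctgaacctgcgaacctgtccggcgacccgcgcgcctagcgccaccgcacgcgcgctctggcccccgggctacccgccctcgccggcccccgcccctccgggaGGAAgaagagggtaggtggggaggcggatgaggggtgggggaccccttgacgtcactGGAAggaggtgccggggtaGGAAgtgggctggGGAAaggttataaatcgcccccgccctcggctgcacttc
Flt4 (chr11:49609429-49609678, plus strand): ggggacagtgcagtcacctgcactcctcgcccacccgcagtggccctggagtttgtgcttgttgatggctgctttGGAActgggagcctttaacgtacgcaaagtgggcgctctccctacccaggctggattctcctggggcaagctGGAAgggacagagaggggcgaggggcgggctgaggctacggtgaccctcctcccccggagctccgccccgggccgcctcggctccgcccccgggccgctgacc
The Flt4 stretch lies inside the GENCODE span of the gene given above, so RefSeq and GENCODE place its start differently. The letters occurred 4 times in Kdr, 4 times in Flt1 and 2 times in Flt4. The same search found them in 93.4% of 32851 promoters, with a median of 3 matches, so a match is the rule among promoters and not particular to these genes. TATAAA, searched on both strands, was in Flt1 and in no other member, against 12.4% of all promoters. The stretches were 61.6%, 70.4% and 68.4% G and C in Kdr, Flt1 and Flt4, against a median of 52.4%. ACGTG, 1 form of the core letters of the hypoxia response element, was found before 1 of the 2 Vegfa starts and before no other member, against 16.6% of all promoters. The form GCGTG was not searched, so the search does not show which members lack the core.

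Without thinning, Kdr had a UMI in 32 of 48 GA and 48 of 48 Control endothelial-like cells, Flt1 in 38 and 48, and Flt4 in 22 and 41. Because depth differed, the same shares were taken with cells thinned to 2000 UMIs, a depth that 19 GA cells and no Control cell failed to reach. Flt1 was then seen in 86.2% of 29 GA cells (Clopper-Pearson interval 68.3 to 96.1%) and 83.3% of 48 Control cells (69.8 to 92.5%). Kdr was seen in 65.5% (45.7 to 82.1%) and 52.1% (37.2 to 66.7%), and Flt4 in 17.2% (5.85 to 35.8%) and 8.33% (2.32 to 19.98%). The intervals of the libraries overlapped for all 3 genes. In B-like cells, which should lack these receptors, Kdr and Flt1 were each in 0 of 583 GA cells, which by a limit of 3 counts allows a share of up to 0.515%, and in 0.173% of 577 Control cells. Median depths before thinning were 13594 and 32978 UMIs in endothelial-like cells and 6472 and 5934 in B-like cells. Of the 77 thinned endothelial-like cells, 41 had both Kdr and Flt1, 24 had Flt1 alone, 3 had Kdr alone and 9 had neither. Few cells had Kdr without Flt1 at this depth.

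Between libraries, no receptor lay past 1.5-fold in the endothelial-like cells as kept here, and for Flt4 this depended on the cells. The log2 ratio of GA over Control was -0.03 (-0.19 to 0.13) for Kdr, -0.27 (-0.37 to -0.18) for Flt1, 0.32 (-0.08 to 0.71) for Flt4, 0.07 (-0.13 to 0.27) for Nrp1 and -0.12 (-0.30 to 0.06) for Nrp2. Of the 7 members with at least 100 UMIs in the class, only Pgf lay past 1.5-fold, beside 15.1% of all 4775 genes at that count, and the members' median log2 ratio was -0.03 against -0.01 for all these genes. Part of the GA cells were shallow: 1 endothelial-like subgroup held 19 GA cells with a median of 735 UMIs and a summed neutrophil marker level of 30841 CPM, and 7 Control cells with a median of 34230 UMIs and 548 CPM. Summed endothelial markers in that subgroup were 4022 CPM in GA and 6536 in Control. Without that subgroup, 29 GA and 41 Control cells gave log2 ratios of 0.15 (-0.02 to 0.31) for Kdr and -0.11 (-0.22 to -0.01) for Flt1. The sign of both depended on which cells were kept: with predicted doublets kept they were 0.33 and 0.03, and with cells of at least 2000 UMIs 0.42 and 0.16. Flt4 lay past 1.5-fold higher in GA under some settings, at 0.71 with predicted doublets kept, 0.68 without batch correction, 0.80 with cells of at least 2000 UMIs and 1.21 with cells thinned to 2000 UMIs. The thinned value rested on few cells, since Flt4 then had a UMI in 5 of 29 GA and 4 of 48 Control cells.

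Pgf, the placental growth factor gene whose product binds Flt1, had its highest level over both libraries in the endothelial-like class. It had 83 UMIs in 8 of 48 GA cells and 487 UMIs in 23 of 48 Control cells, or 91.9 CPM (73.2 to 114) and 235 (215 to 257). The log2 ratio was -1.35 (-1.71 to -1.02), the intervals did not overlap, and the value without the shallow subgroup was -1.33. Few cells carried these UMIs: 5 cells held 96.4% of them in GA and 67.4% in Control, and 1 GA cell held 45.8%. Among endothelial-like subgroups the one led by Prnd, with 5 GA and 11 Control cells, had 90.9 CPM in GA and 655.9 in Control. The subgroup of 8 GA and 13 Control cells had the other sign, at 228.6 and 152.0 CPM, a log2 ratio of 0.59 (0.03 to 1.12). With predicted doublets kept the log2 ratio was -0.70, and with the top cell of each library left out it was -1.84, so its size rested on few cells.

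Vegfc was also detected in endothelial-like cells, with 51 UMIs in 11 of 48 GA cells and 81 in 20 of 48 Control cells, or 56.5 (42.1 to 74.3) and 39.1 (31.1 to 48.6) CPM. Its log2 ratio was 0.53, and its interval included 0. After thinning, Vegfc was in 20.7% of GA and 6.25% of Control endothelial-like cells and Pgf in 10.3% and 18.8%, with overlapping intervals between libraries for both.

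**Figure D2:**
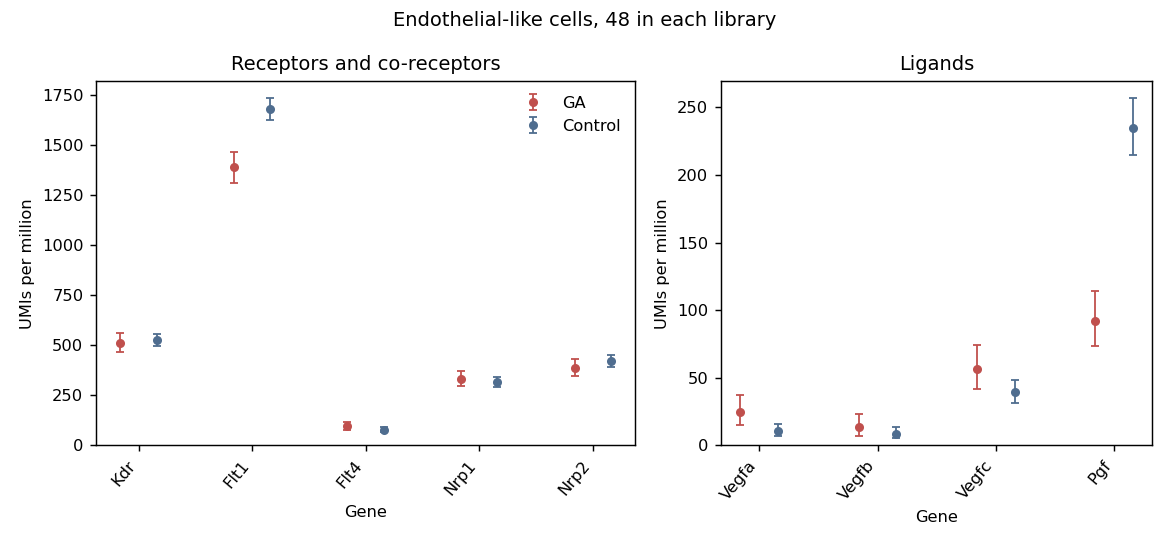
CPM of each member (x axis) summed over 48 endothelial-like cells of GA and of Control; bars are 95% Poisson counting intervals. Kdr, Flt4, Nrp1 and Nrp2 overlap between libraries, Flt1 stands at 1387 and 1677, and Pgf at 91.9 and 235.

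Over the 15 classes the order of Pgf put endothelial-like cells first in Control and osteoclast-like cells first in GA. In GA the intervals of these classes overlapped. Osteoclast-like cells, the bone-resorbing class, had 159 Pgf UMIs in 14 of 30 GA cells and 82 in 15 of 60 Control cells, or 107 and 28.0 CPM, a log2 ratio of 1.94 (1.54 to 2.34). Here too 5 cells held 83.0% of the UMIs in GA and 79.3% in Control. After thinning, Pgf was in 16.7% of 30 GA osteoclast-like cells (5.64 to 34.7%) and 3.33% of 60 Control cells (0.406 to 11.5%). The CPM of Pgf thus ran in opposite directions in these classes, while the intervals of the thinned shares overlapped between libraries in each. Vegfb moved the other way in osteoclast-like cells, with 34.3 CPM in GA and 59.4 in Control and a log2 ratio of -0.79 (-1.27 to -0.33). These were the 2 of 5 members past 1.5-fold in that class, where 8.32% of all genes were. The other 3 had log2 ratios of 0.06 (-0.15 to 0.27) for Vegfa, 0.33 (-0.28 to 0.94) for Vegfc and 0.22 (0.11 to 0.32) for Nrp2.

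Vegfa, the principal angiogenic ligand, came from many classes. The order of the classes differed between libraries, so it is given for each. In GA, osteoclast-like cells came first at 197 CPM (175 to 221), followed by osteoblast-like cells at 162 (149 to 177), pericyte or smooth muscle-like cells at 127 (103 to 156), macrophage or monocyte-like cells at 107.6 (104 to 111) and mesenchymal-like cells at 94.3 (91.5 to 97.3). Intervals overlapped between osteoclast-like and osteoblast-like, between osteoblast-like and pericyte-like, and between pericyte-like and macrophage-like cells, and macrophage-like and mesenchymal-like cells were separate. In osteoclast-like cells the top cell held 22.5% of the 293 Vegfa UMIs in GA and 7.21% of the 555 in Control. The GA level of that class thus rested in part on its top cell. In GA the pericyte or smooth muscle-like class had higher summed neutrophil and mesenchymal markers than pericyte markers, as given below. In Control, macrophage or monocyte-like cells came first at 238 (233 to 243), then osteoclast-like cells at 189 (174 to 206), pericyte or smooth muscle-like cells at 134 (117 to 154) and mesenchymal-like cells at 131.5 (129 to 134), of which the last pair overlapped. Osteoblast-like cells were at rank 7 in Control, at 69.0 CPM (59.0 to 80.1). Endothelial-like cells ranked 11 of 15 in GA and 14 in Control. Most Vegfa UMIs came from a few classes: mesenchymal-like cells gave 37.3% in GA and 49.8% in Control, macrophage or monocyte-like cells 31.6% and 38.7%, and neutrophil-like cells 14.1% and 3.56%. These shares depend on depth as well as cell number. Median depth in GA was 51995.5 UMIs in mesenchymal-like and 7012.5 in neutrophil-like cells. With each cell thinned to 2000 UMIs, the mesenchymal-like share became 16.4% and 25.9%.

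Vegfa was lower in GA macrophage or monocyte-like cells, at 107.6 CPM (104 to 111), than in Control, at 238 (233 to 243). The log2 ratio was -1.14 (-1.20 to -1.09), against a median of 0.11 over all genes of the class. Of 7 members counted there, 4 lay past 1.5-fold, and these were lower in GA, beside 18.3% of 11691 genes in either direction. These were Vegfa, Nrp2 at -0.80, Flt1 at -0.66 and Pgf at -1.22. Pgf was sparse there, with 28 UMIs in GA and 81 in Control (0.86 and 2.01 CPM). Flt1 and Pgf were each lower in GA within 2 of 4 clusters of the class. Vegfb stood at -0.47, Nrp1 at -0.12 and Kdr at 0.28 (-0.20 to 0.75).

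The class was made of 4 clusters whose shares differed between libraries, so each is given by itself. In cluster 7, which had the highest Arg1 level at 795 CPM, Vegfa was 134 CPM in GA and 274 in Control, a log2 ratio of -1.03 (-1.11 to -0.94). In cluster 17, the highest in C1qa, it was 179 and 249.7, with a ratio of -0.48 (-0.57 to -0.38). In the Ly6c2- and Ccr2-rich monocyte cluster 15 it was 59.4 and 103, with a ratio of -0.79 (-0.94 to -0.64). Cluster 15 also had the most Mki67, at 409 CPM against 31.4 to 54.0 in the other clusters of the class. The small Cd5l-led cluster 9 had 15.3 and 15.1 CPM. Vegfa was thus lower in GA within 3 of 4 clusters, and with clusters weighted by the same makeup in both libraries the class ratio was -0.78. Cluster 15 made up 41.2% of the class in GA and 21.05% in Control.

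Flt1, whose product also serves as a receptor on monocytes, was concentrated in the monocyte cluster in Control. Cluster 15 had 46 Flt1 UMIs in 30 of 536 GA cells and 142 in 56 of 370 Control cells, or 3.08 and 24.1 CPM, a log2 ratio of -2.97 (-3.48 to -2.48). Nrp2 in the same cluster was 13.3 and 54.2 CPM, a ratio of -2.03 (-2.29 to -1.77). Median depth there was 24172.5 UMIs in GA and 13097.5 in Control. The part of depth, and of Mki67-expressing cells in the cluster, in these differences was not tested. In cluster 7 Flt1 had the other sign, at 6.84 CPM in GA and 4.09 in Control. Kdr was low throughout the macrophage clusters, and its highest level was 6.54 CPM in GA cells of cluster 7, with 66 UMIs in 38 of 399 cells, against 1.89 in Control, with 37 UMIs in 28 of 724 cells.

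Both neuropilins were also detected in macrophages. Over the class, Nrp1 stood at 194 CPM in GA and 211 in Control, and Nrp2 at 169.9 and 296. Within clusters, Nrp1 was higher in GA in cluster 7 (318 and 250.3 CPM) and in cluster 17 (247 and 203). Nrp2 was nearly level in cluster 17 (377 and 391, log2 ratio -0.06, -0.12 to 0.01). With clusters weighted by the same makeup the class ratio of Nrp2 was -0.19 and that of Nrp1 was 0.25, so for both the pooled value moved with the makeup of the class.

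**Figure D3:**
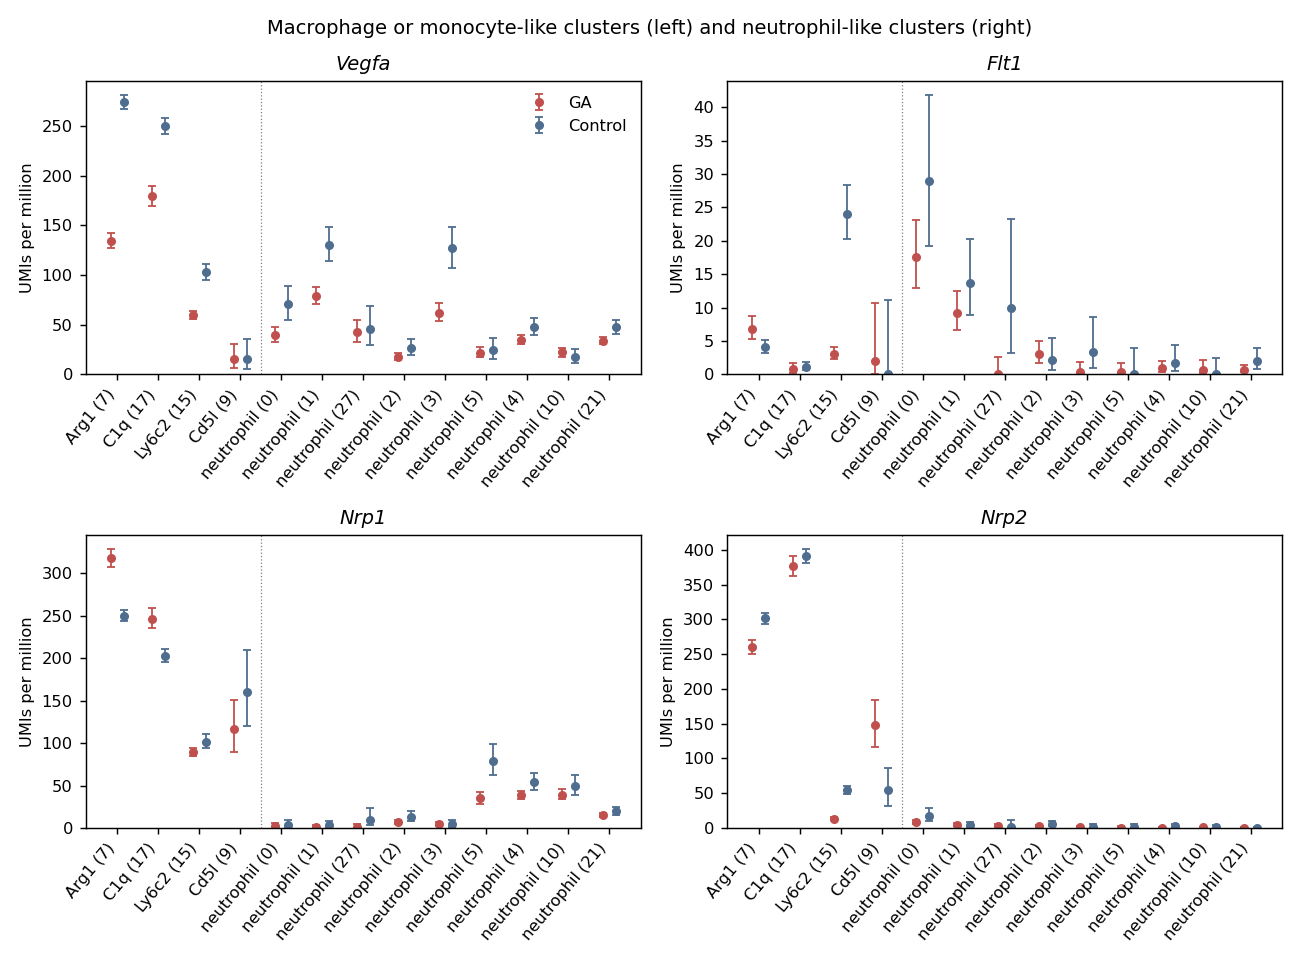
CPM of Vegfa, Flt1, Nrp1 and Nrp2 in the 4 macrophage or monocyte-like clusters (left of the dotted line, with a leading or descriptive gene and cluster number) and 9 neutrophil-like clusters, for GA and Control; bars are 95% Poisson counting intervals. Vegfa is lower in GA in clusters 7, 17 and 15, and Flt1 in cluster 15 is at 3.08 and 24.1.

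In neutrophil-like cells Vegfa stood at 37.5 CPM (35.7 to 39.4) in GA and 58.0 (54.2 to 61.9) in Control, a log2 ratio of -0.63 (-0.75 to -0.51). It was lower in GA in 8 of 9 neutrophil-like clusters. Of 4 members counted, 3 lay past 1.5-fold, all lower in GA, beside 8.20% of 9462 genes, and the median of all genes in the class was -0.14. The other 2 were Flt1 at -0.76 (-1.18 to -0.33) and Nrp2 at -0.74 (-1.28 to -0.18). Both were sparse, with 126 and 78 UMIs of Flt1 in GA and Control and 77 and 47 of Nrp2. The top cell held 15.9% of the Flt1 UMIs in GA and 23.1% in Control, and 5.19% and 19.1% of those of Nrp2.

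Flt1 and Nrp1 were highest in different neutrophil-like clusters. Flt1 was highest in cluster 0, which led in Cxcr2 and Ccl3, at 17.5 CPM in GA (50 UMIs) and 28.9 in Control (28 UMIs). Cluster 1 followed at 9.25 and 13.7. Flt1 was sparse, with UMIs in 52 of 4380 GA and 44 of 2072 Control neutrophil-like cells. Among them, 5 cells held 46.8% of the Flt1 UMIs in GA and 38.5% in Control. In clusters 4, 5 and 10, where the granule gene Ltf ran from 7435 to 13625 CPM, Flt1 was at 0.24 to 1.15 CPM over both libraries. Nrp1 ran the other way, with 42.1 to 44.9 CPM in clusters 4, 5 and 10 and 2.20 to 2.88 in clusters 0 and 1. Cluster 21, which also had Ltf at 7722 CPM and had the most Mki67, lay between them with 16.6 CPM of Nrp1.

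Vegfc, the ligand of Flt4 that drives lymphatic growth, was highest in mesenchymal-like cells over both libraries. Their level was 60.9 CPM (59.6 to 62.2), and they held 81.8% of Vegfc UMIs in GA and 94.2% in Control. In Control they stood first, and in GA at rank 5, behind small classes such as basophil or mast-like cells, where 1 cell held 70.8% of 24 UMIs. The level was 33.4 CPM (31.7 to 35.1) in GA and 73.7 (72.0 to 75.5) in Control, a log2 ratio of -1.14 (-1.23 to -1.06). Osteoblast-like cells had almost none, at 0.538 CPM over both libraries.

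The mesenchymal difference in Vegfc was seen in most of its populations. The dividing Stem 1-like cells (Mki67 and Top2a markers) had 56.3 and 125 CPM in GA and Control, a log2 ratio of -1.15 (-1.39 to -0.91). The Stem 2-like cells (Pi16 and Ly6a markers) had 10.7 and 24.0, a ratio of -1.16 (-1.38 to -0.94). Fibroblastic progenitor-like cells (Eln and Mgp markers) had 43.8 and 76.4, a ratio of -0.80 (-1.17 to -0.46). Multilineage progenitor-like cells (Scx and Tnmd markers) were the exception among named progenitors, with 49.0 and 54.9 and a ratio of -0.16 (-0.34 to 0.01). Of 4 further clusters that could not be named, 3 had ratios of -0.95 to -1.28. With the 4 mesenchymal clusters weighted by the same makeup in both libraries the class ratio of Vegfc was -1.09, close to the pooled value. With thinned cells the class ratio was smaller in size and lay outside the counting interval of the pooled value, as given below. After thinning, Vegfc was in 7.11% of 788 GA mesenchymal-like cells (5.41 to 9.13%) and 8.87% of 1668 Control cells (7.55 to 10.3%). The intervals of these shares overlapped.

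Pgf was lower in GA in 3 of 4 mesenchymal clusters, but not in the population where it was highest. Its pooled level was 5.24 CPM in GA and 14.4 in Control, a log2 ratio of -1.46 (-1.67 to -1.26). The fibroblastic progenitor-like cells, where Pgf was highest among named populations, had 49.9 CPM (81 UMIs in 46 cells) in GA and 43.5 (672 UMIs in 352 cells) in Control, a ratio of 0.20 (-0.15 to 0.53). Cluster 25, which held 82 of the Pgf UMIs in GA and 675 in Control, made up 7.11% of mesenchymal-like cells in GA and 21.5% in Control. With clusters weighted by the same makeup the class ratio of Pgf was -0.60, still past 1.5-fold. In Stem 2-like cells Pgf was 3.74 and 9.50 CPM, with a ratio of -1.34 (-1.73 to -0.97). Stem 1-like cells had 6 UMIs in GA and 101 in Control, a ratio of -2.46 (-3.94 to -1.29). Multilineage progenitor-like cells were nearly level, at 0.04 (-0.59 to 0.63).

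Flt1 in the mesenchyme followed the same population, at 7.399 CPM in GA and 17.5 in Control in fibroblastic progenitor-like cells and at most 1.30 in the other named progenitors of either library. Its pooled ratio of -2.03 (-2.51 to -1.59) became -0.998 with clusters weighted by the same makeup. Of 8 members counted in mesenchymal-like cells, 4 lay past 1.5-fold, lower in GA: Vegfc, Pgf, Flt1 and Nrp2 (-0.82, -0.87 to -0.77). With clusters weighted by the same makeup Nrp2 was at -0.56, within 1.5-fold. Cluster 13 alone lay past 1.5-fold for Nrp2, at -1.23, and clusters 14, 23 and 25 were at -0.42, -0.21 and -0.16. The background was 12.0% of 14028 genes, with a median of -0.01. Vegfa at -0.48 and Nrp1 at -0.34 lay within 1.5-fold, and Vegfb, a ligand of Flt1, stood at 0.09 (-0.03 to 0.20).

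**Figure D4:**
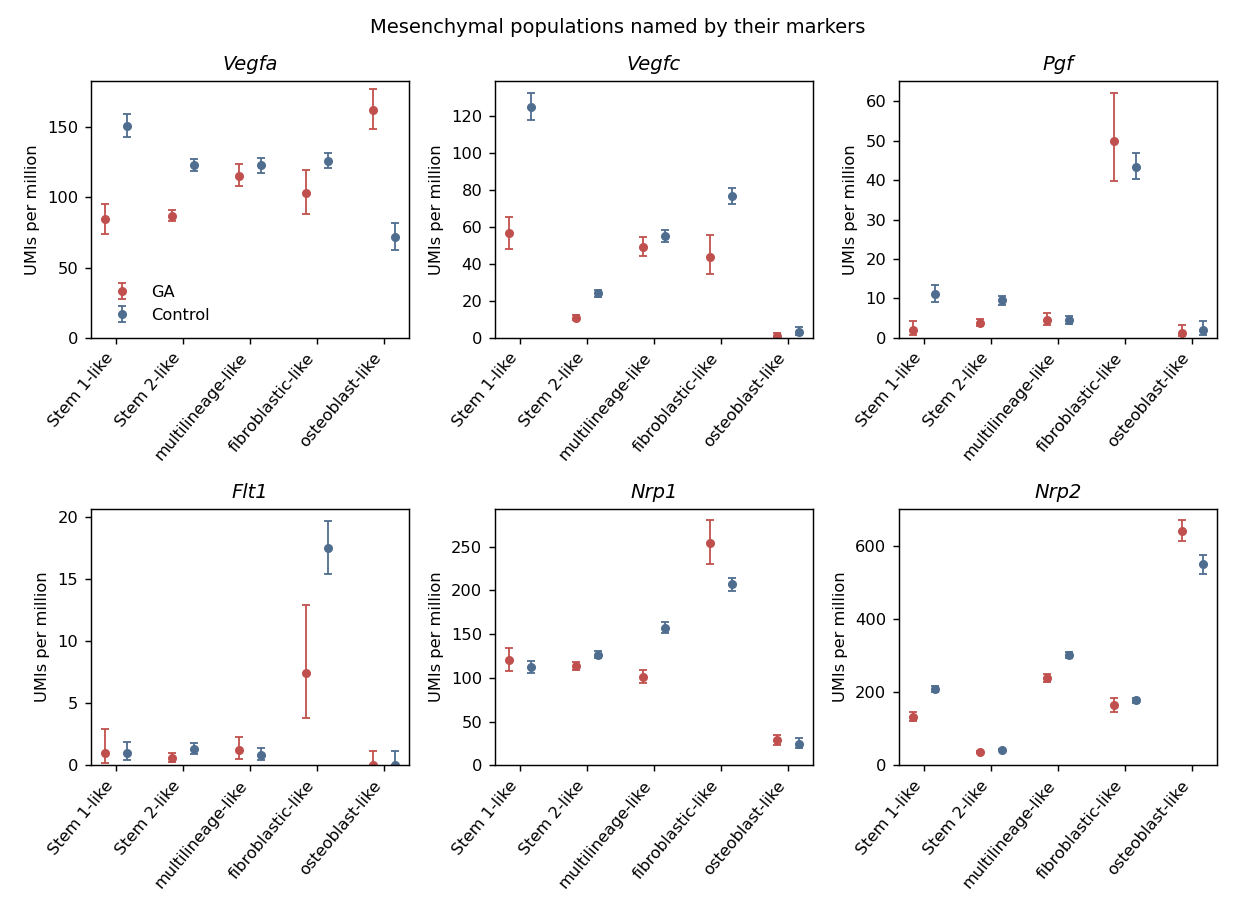
CPM of 6 members in the 5 mesenchymal populations that could be named by markers, for GA and Control; bars are 95% Poisson counting intervals, and 4 unnamed clusters are not drawn. Vegfc is lower in GA in Stem 1-like, Stem 2-like and fibroblastic-like cells, Pgf and Flt1 are highest in fibroblastic-like cells, and Vegfa is higher in GA in osteoblast-like cells.

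In osteoblast-like cells Vegfa was higher in GA by CPM. They had 506 Vegfa UMIs in 57 of 76 GA cells and 170 in 37 of 58 Control cells, or 162 CPM (149 to 177) and 69.0, a log2 ratio of 1.24 (0.98 to 1.49). The 5 cells with most UMIs held 34.6% in GA and 42.9% in Control. After thinning, Vegfa was in 20.3% of 74 GA cells (11.8 to 31.2%) and 13.8% of 58 Control cells (6.15 to 25.4%). The intervals of these thinned shares overlapped, so the shares do not separate the libraries. Vegfa alone, 1 of 3 members counted, lay past 1.5-fold, beside 10.5% of 4755 genes. When osteoblast-like cells were taken from the mesenchymal sub-clustering instead, 76 and 71 cells gave a ratio of 1.18 (0.95 to 1.41). In the stem-like populations the ratio had the opposite sign, at -0.84 (-1.04 to -0.65) in Stem 1-like and -0.50 (-0.58 to -0.42) in Stem 2-like cells, and in multilineage progenitor-like cells it was -0.09 (-0.20 to 0.03).

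Nrp2 was highest in the bone-resorbing and bone-forming classes. Osteoclast-like cells stood at 843 CPM in GA and 725.5 in Control, with UMIs in 30 of 30 and 60 of 60 cells, and osteoblast-like cells at 642 and 619. These classes were first and second in both libraries, and over both libraries their intervals were separate. After thinning, Nrp2 was in 80.0% of GA and 71.7% of Control osteoclast-like cells and in 54.1% and 55.2% of osteoblast-like cells. Among B-like cells it was in 0 of 583 and in 0.693% of 577. Among the named mesenchymal populations Nrp2 was lowest in Stem 2-like cells, at 40.1 CPM over both libraries, and stood at 283 in multilineage progenitor-like and 596 in osteoblast-like cells. Nrp1 was lowest in osteoblast-like cells, at 26.8, and highest in fibroblastic progenitor-like cells, at 211.5.

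Pericyte or smooth muscle-like cells carried Flt1, Nrp1 and Nrp2. Of 5 members counted, 3 lay past 1.5-fold, beside 29.2% of 4500 genes, so the members' share is read against a high background. Flt1 had 36 UMIs in GA and 233 in Control (47.8 and 149.8 CPM), with 72.5% of the Control UMIs in 5 cells. Kdr had 3 and 38 UMIs, and 1 Control cell held 78.9% of the latter. Nrp1 had 142 and 282 CPM, and Nrp2 had 314 and 197. Summed endothelial markers in the class were 125 CPM in GA and 381 in Control, and summed pericyte markers 2016 and 7429. Summed neutrophil markers were 3126 and 273, and summed mesenchymal markers 2300 and 1591, so in GA both exceeded the markers the class is called by. The part of these levels in the members' differences was not tested.

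In dendritic-like cells 3 of 4 members counted lay past 1.5-fold, beside 8.63% of 7571 genes: Nrp1 was higher in GA (109 and 55.5 CPM, log2 ratio 0.97, 0.75 to 1.18), while Pgf (7.43 and 23.5) and Vegfa (62.4 and 94.1) were lower. In HSC-like cells, called from stem and progenitor markers such as Kit and Mpo, 2 of 6 did, beside 8.25% of 10090 genes. These were Vegfc, at 4.17 and 7.18 CPM, and Nrp2, at 4.85 and 7.76, both lower in GA. Vegfb ranged over both libraries from 50.9 CPM in osteoclast-like cells, at rank 2 in GA and 1 in Control, to 0.914 in neutrophil-like cells.

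Summed over all cells, 8 of 9 members lay past 1.5-fold lower in GA, beside 29.2% of 16793 genes in either direction, and Vegfb was the exception at -0.41. The members' median log2 ratio was -0.97 and that of all genes -0.09. The values ran from -0.67 for Nrp1 to -1.85 for Vegfc. Class levels were also weighted by the same makeup in both libraries, each class by its UMIs summed over both. With these weights 4 of 9 stayed past 1.5-fold: Vegfa at -0.66, Vegfc at -1.05, Pgf at -1.04 and Nrp2 at -0.61. Kdr went to 0.03 and Flt4 to 0.13, with the sign reversed, and Flt1 to -0.46. For Kdr and Flt4 the all-cell ratio and the ratio within endothelial-like cells thus differed. The all-cell ratio moved with the share of a library's UMIs that each class held, which depends on depth as well as cell number. Endothelial-like cells were 48 in each library, 19 of those in GA in the shallow subgroup, but held 902874 UMIs in GA and 2071192 in Control.

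**Figure D5:**
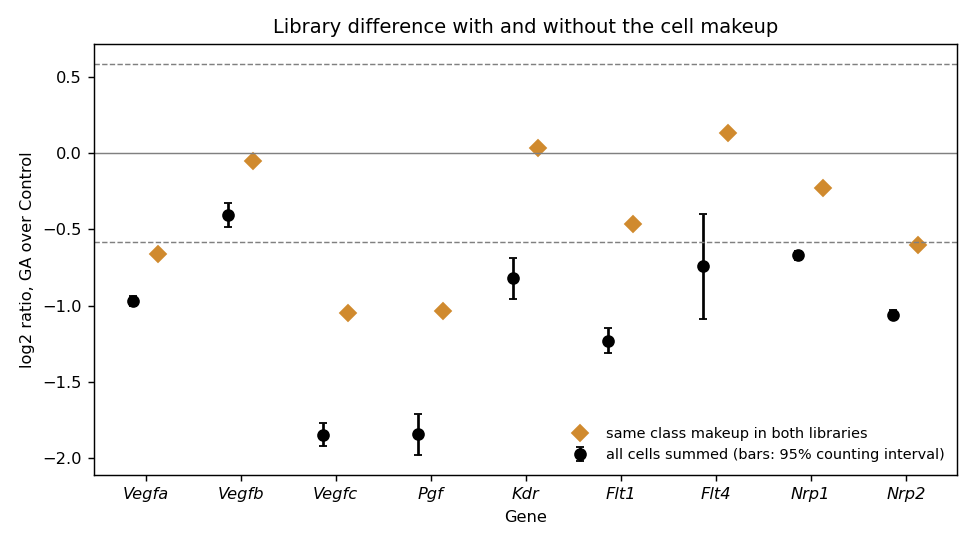
log2 ratio of GA over Control for each member with all kept cells summed (circles, bars are 95% counting intervals) and with class levels weighted by the same makeup in both libraries (diamonds); dashed lines mark 1.5-fold. Kdr moves from -0.82 to 0.03 and Flt4 from -0.74 to 0.13, while Vegfc stays lower at -1.05.

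Genes around the pathway were described by lists, with the median over genes of at least 20 UMIs. In endothelial-like cells the medians were -0.27 over 14 tip cell and VEGF-responsive genes, -0.28 over 5 angiopoietin and Tie genes, 0.00 over 10 genes of VEGF receptor signal transduction and 0.25 over 8 neuropilin partners, against 0.02 over all genes. The 2 lymphatic VEGF genes with enough UMIs there are not described further. The hypoxia response genes had a median of -0.37, with 11 of 12 lower in GA, while 8 genes of HIF control had -0.14. Adm, a vessel-acting peptide induced by hypoxia, was 17.7 CPM in GA and 59.4 in Control. Kcne3, a tip cell potassium channel subunit, was 5.54 and 71.9, and the immediate early gene Egr3 was 60.9 and 24.1, with 61.8% of its GA UMIs in 1 cell. Sema3a, a semaphorin ligand of Nrp1, was 123 and 7.24 CPM, and 1 cell held 48.6% of its GA UMIs. Endothelial-like cells held 902874 UMIs in GA, so the GA levels of Adm and Kcne3 rested on few UMIs. The lists and their genes were not taken again without the shallow subgroup rich in neutrophil markers.

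The hypoxia response list was also taken in the ligand sources. In macrophage or monocyte-like cells 13 of 15 hypoxia response genes were lower in GA, with a median of -0.25 against 0.11 over all genes of the class. Bnip3 was 35.8 and 66.2 CPM and Pfkfb3 49.4 and 80.5. Of 8 HIF control genes in the class, 3 were higher and 5 lower in GA, with a median of -0.12. Among these, Hif1a, the oxygen-regulated HIF subunit, was 221.5 and 302. These values were pooled over the clusters of the class, whose shares differed between libraries. Neither list was taken within clusters, so the part of that makeup was not tested. In osteoblast-like cells, where Vegfa was higher in GA, the hypoxia response median was 0.18, with 8 genes higher and 5 lower. Ndrg1 was 155 and 65.3 CPM there, while 6 of 7 HIF control genes were lower in GA, with a median of -0.21. In neutrophil-like cells, where Vegfa was lower in GA, the hypoxia response median was 0.04, against -0.16 over all genes. Of those genes, 7 were higher and 6 lower. A link between the list and Vegfa was not tested. In the mesenchymal lineage, also pooled over its clusters, the hypoxia response median was -0.08 over 15 genes. That of 6 lymphatic VEGF genes was -0.22, with 5 lower in GA. Vegfd, a second ligand of Flt4, was the 1 that was higher, at 58.0 and 46.7 CPM. The 11 neuropilin partners of that lineage had a median of -0.06, with 5 higher and 6 lower in GA. The 2 past 1.5-fold higher were the semaphorins Sema3d, at 50.8 and 25.01 CPM, and Sema3c, at 239 and 148.5. Another 2 partners lay past 1.5-fold lower.

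Across the 15 classes and 2 libraries (30 points that share library, depth and cell numbers), the genes most like each member in log2(CPM + 1) were compared among 15318 others by Pearson's r, as a description. Flt4 was closest to Aplnr (0.993), Prnd and Tmem252, Flt1 to Pcdh1 (0.928), Emcn and Gm48727, and Kdr to Nos3 (0.902), Arhgef15 and Mall. Nrp2 was closest to Rai14 (0.929), Cd109 and Emp1, and Nrp1 to Man1c1 (0.878), Pvr and Dock4. Among ligands, Vegfb was closest to Iars2 (0.882), Nit2 and Qars, Pgf to Chst7 (0.880), Tspan7 and Rin1, Vegfa to Fmn1 (0.829), Hk2 and Slc6a8, and Vegfc to Kdsr (0.788), Tef and Trim62.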

How the data were processed

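Cells from 2 libraries (GA and Control, 1 per group) were profiled by 10x Genomics 3′ single-cell RNA-seq. The authors deposited filtered matrices of raw UMI counts per gene and barcode, made with Cell Ranger (7.0.1 in the matrix headers, another version in the methods) on mm10, and these counts are the values used. The deposited matrices held 9322 GA and 8718 Control barcodes with 182949385 and 214993030 UMIs. Cells with 500 to 140000 UMIs, 200 to 9500 genes and at most 15% mitochondrial UMIs were kept. Scrublet (scanpy 1.11.5) called 0 and 39 doublets, under 0.5% of barcodes, so the highest scores were removed at 0.8% per 1000 barcodes (656 and 540 cells). Clustering used 2000 variable genes, with the members and the genes of the lists left out, Pearson residuals (theta 100), 50 components, Harmony written in NumPy 2.4.6, 15 neighbours and Leiden at resolution 1. A cluster was called "-like" where at least 3 markers were in 10% of its cells and at least 2-fold above the mean of clusters of other provisional classes, and no other class had more markers among its top 10 genes. These limits were set after the clusters had been seen. The unnamed cluster of 27 cells counted in no class.

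UMIs were summed per class and library. Levels have exact Poisson intervals, shares Clopper-Pearson intervals and ratios exact conditional binomial intervals, all at 95% and for counting error only. With 1 library per group no test was run. Past 1.5-fold is set beside the share of all genes of the class with at least 100 UMIs. The ratio and interval code was tested on simulated counts. The named genes were the 9 members, the 3 genes most correlated with each (at least 200 UMIs), and, per list and class, up to 3 genes each way with ratios furthest from 0. Members and lists were chosen with earlier results of these data known. Sequences are from RefSeq promoters. Alternatives covered doublets, mitochondrial share, variable genes, resolution, batch correction, depth, scaling and single cells. Leaving out the low-depth endothelial group and weighting clusters by the same makeup were added after seeing the data. The same makeup weighted each class or cluster by its UMIs over both libraries, so depth as well as cell number enters it.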

Additional observations from a re-analysis of the deposited data

How the results depend on the processing

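Each class had 1 library per group, so counting error is the only error estimated and no setting was tested. The intervals leave out variation between mice, libraries and cells. No paired analysis was possible because each group has 1 library. Of 96 recomputed ratios in a member's leading class 78 stayed within the counting interval. With predicted doublets kept, log2 ratios in endothelial-like cells became -0.70 for Pgf, 0.33 for Kdr, 0.0298 for Flt1 and 0.71 for Flt4. With a mitochondrial share of at most 10%, Nrp2 in osteoclast-like cells was 0.34. Without batch correction Kdr was 0.22 and Flt1 0.0217. With cells of at least 2000 UMIs Kdr was 0.42, Flt1 0.16 and Flt4 0.80. With cells thinned to 2000 UMIs Vegfa in osteoclast-like cells was -0.42, Vegfc in mesenchymal-like cells -0.68, Kdr 0.36 and Flt4 1.21. That Flt4 value rested on 5 GA and 4 Control cells with a UMI. Without the top cell of each library Vegfa was -0.17 and Pgf -1.84. Without the low-depth endothelial group Kdr was 0.15 and Flt1 -0.11. The cause of these moves was not tested.

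The leading class of Vegfa changed to macrophage or monocyte-like cells with a mitochondrial share of at most 10% (185.6 CPM), without batch correction (203) and with cells of at least 2000 UMIs (207). Over all cells, the same class makeup gave -0.66 for Vegfa, -0.0502 for Vegfb, -1.05 for Vegfc, -1.04 for Pgf, -0.46 for Flt1, -0.23 for Nrp1 and -0.61 for Nrp2, and reversed Kdr to 0.0340 and Flt4 to 0.13. With doublets kept Vegfa was -0.90 and Flt1 -1.33.

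Thinning, which gives each cell the same weight, lowered most shares of a gene's UMIs that a class held. The shares in mesenchymal-like cells of GA and Control became 16.4% and 25.9% for Vegfa, 21.2% and 40.0% for Vegfb, 65.3% and 80.8% for Vegfc, 18.9% and 35.9% for Nrp1 and 16.97% and 28.4% for Nrp2, and 50% for Pgf in Control. Those in endothelial-like cells became 65.2% for Kdr in Control, 58.2% and 56.7% for Flt1 and 87.5% and 62.5% for Flt4.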
